A study of Mus musculus with 6 samples.

Results

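The genes that set the pace of the G1 phase were examined here in MB49, a mouse bladder cancer cell line. They are 10 genes picked by name: the D-type cyclins Ccnd1, Ccnd2 and Ccnd3, the CIP/KIP inhibitors Cdkn1a, Cdkn1b and Cdkn1c, the INK4 inhibitors Cdkn2a, Cdkn2b and Cdkn2c, and Rb1. All 10 were found among the 54532 genes of the count table, and 8 of them passed the filter on low counts and were tested. Cdkn1c, with 0 counts, and Cdkn2a, with 31 counts in the control group and 13 in the other, did not pass it.

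Bulk RNA-seq had been done on 2 groups of 3 libraries. CRISPR Y-KO cells are named in the labels as a CRISPR knockout of Y in the Y-positive MB49 line, and CRISPR Y-Scr cells are the controls, made with a guide RNA that has no target. The labels give the source as MB49 tumor and name no guide for the Y-KO cells. The protocol in the labels describes transduction, sorting on the fluorescent protein tRFP and expansion of single-cell clones, and it is given for both groups. Whether replicates were separate clones, separate cultures or repeat libraries is not stated, so the p-values measure only the spread between these libraries, which may be technical, and any difference between clones cannot be told apart from the effect of the edit. In bulk RNA, more cells in a phase of the cycle and more RNA per cell cannot be told apart either.

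Progress through G1 is driven by D cyclins bound to the kinases CDK4 and CDK6. These complexes phosphorylate the retinoblastoma protein, the product of Rb1, which otherwise holds E2F transcription factors in check, and freed E2F factors switch on cyclin E and the genes of DNA replication. INK4 proteins bind CDK4 and CDK6 and keep D cyclins off them, while CIP/KIP proteins bind complexes of cyclin and kinase, above all those of CDK2. In bladder cancer the CCND1, CDKN2A and RB1 genes are known sites of alteration.

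The library totals lay between 15698510 and 24633158 counts, and 3 counts correspond to 0.122 to 0.191 CPM per library (CPM, counts scaled to a common library size). The labels of the groups held: Ddx3y, Eif2s3y, Kdm5d and Uty, all on the Y chromosome, summed to 370 to 431 CPM in the Y-Scr libraries and had 0 counts in every Y-KO library. Of the markers of bladder epithelium, the keratin genes Krt8 and Krt18 stood at 1326 to 2816 CPM on average, while Epcam, Cdh1 and Upk3a had 0 counts in all 6 libraries. Krt5, Krt7, Upk1b, Upk2, Pparg and Trp63 each had at most 11 counts summed over a group, and only 4 of the 13 markers passed the filter and were tested. Over the 13 epithelial markers the sum was 3356 to 3724 CPM in Y-Scr and 4018 to 4322 CPM in Y-KO, a difference that lay mostly in Krt8 (2188 to 2816 CPM). Krt19 was higher too (log2 fold change 2.37), at a low level of 1.42 CPM in Y-Scr and 7.53 CPM in Y-KO. Krt18 did not pass the test, and Gata3, a urothelial transcription factor gene, was lower (log2 fold change -1.48, edgeR quasi-likelihood adjusted p = 1.4e-05). The leukocyte markers Ptprc, Cd3e and Itgam had 0 counts in all libraries, and the list of 8 (108 to 116 CPM in Y-Scr and 95.3 to 101 CPM in Y-KO) was nearly all Cd68. The list of 7 fibroblast and muscle markers summed to 12.8 to 16.9 CPM in Y-Scr and 18.3 to 20.7 CPM in Y-KO. Of the 4 tested, Pdgfra was higher (8.68 to 14.4 CPM on average), and Dcn, Col1a1 and Des did not pass the test. The 5 endothelial markers stayed at or under 1.45 CPM in sum and the 5 erythroid markers at or under 0.397 CPM. What part the epithelial, leukocyte and fibroblast markers have in the results was not tested.

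All 3 D cyclin genes rose in Y-KO, and so did the INK4 inhibitor gene Cdkn2c, while the CIP/KIP inhibitor gene Cdkn1a fell. Cdkn1b and Rb1 did not pass the test, and the genes of the INK4 locus, Cdkn2a and Cdkn2b, were close to the limit of detection in both groups. Calls rest on edgeR's quasi-likelihood test with Benjamini-Hochberg adjustment over all 12907 tested genes, at a threshold of 0.05. Of the 8 tested genes 4 were higher and 1 was lower. Among all tested genes 43.6% were called, 20.7% higher and 23.0% lower, so calls were frequent in this comparison and the count of 5 in 8 is to be read against that share. The median log2 fold change was 0.10 over the 8 genes and -0.01 over all tested genes. For the 5 called genes the groups did not overlap, as was the case for 52.9% of all tested genes.

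Regulatory sequence is shown for the 3 called genes that RefSeq's promoter table (GRCm38.p6) holds, as the 250 bases before an annotated start, so that the motifs named beside the results can be read. The table gave 10 windows for 6 of the 10 genes. For a gene with several windows, those overlapping annotated exons by more than 30 bases were left out, and the window with the most motif matches is shown. Capitals mark matches to a GC box (GGGCGG on either strand), the site of Sp1-type factors.
Ccnd3, chr17:47504801-47505050, plus strand: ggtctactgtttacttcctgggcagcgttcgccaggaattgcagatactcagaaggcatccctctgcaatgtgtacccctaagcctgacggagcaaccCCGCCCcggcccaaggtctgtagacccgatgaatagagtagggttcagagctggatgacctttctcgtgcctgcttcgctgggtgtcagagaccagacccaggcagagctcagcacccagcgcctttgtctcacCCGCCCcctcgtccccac
Cdkn2c, chr4:109665373-109665622, minus strand: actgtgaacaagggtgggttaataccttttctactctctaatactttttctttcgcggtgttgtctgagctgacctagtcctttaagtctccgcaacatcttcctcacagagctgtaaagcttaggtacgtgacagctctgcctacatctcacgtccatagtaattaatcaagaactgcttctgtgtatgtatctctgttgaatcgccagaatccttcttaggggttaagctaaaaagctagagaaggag
Cdkn1a, chr17:29093519-29093768, plus strand: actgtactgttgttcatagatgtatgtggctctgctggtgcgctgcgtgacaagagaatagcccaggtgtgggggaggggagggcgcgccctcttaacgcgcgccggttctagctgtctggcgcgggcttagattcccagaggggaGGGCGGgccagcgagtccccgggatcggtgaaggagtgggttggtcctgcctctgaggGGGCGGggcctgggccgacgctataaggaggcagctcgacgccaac

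These windows were searched on both strands for E2F sites (TTTCCCGC, TTTCGCGC, TTTGCCGC or TTTGGCGC), AP-1 sites (TGANTCA), CRE sites (TGACGTCA), E-boxes (CACGTG), GC boxes, and the interferon-response core and NF-kB motifs. The windows shown for Ccnd3 and Cdkn1a each held 2 GC boxes and no other motif of the set. That shown for Cdkn2c held none of them. The other Cdkn2c window (chr4:109666757-109667006) was left out because all 250 of its bases are annotated exon, and it held 3 GC boxes. The window not shown for Ccnd3 held 1 GC box, and that for Cdkn1a held no match. Motif content thus depended on the window, and no contrast between the genes is drawn from it. A GC box stood in 57.5% of the 11841 windows of tested genes, and an E2F site in 3.32% of them. The matches are descriptions of the letters and show no binding.

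**Figure D1:**
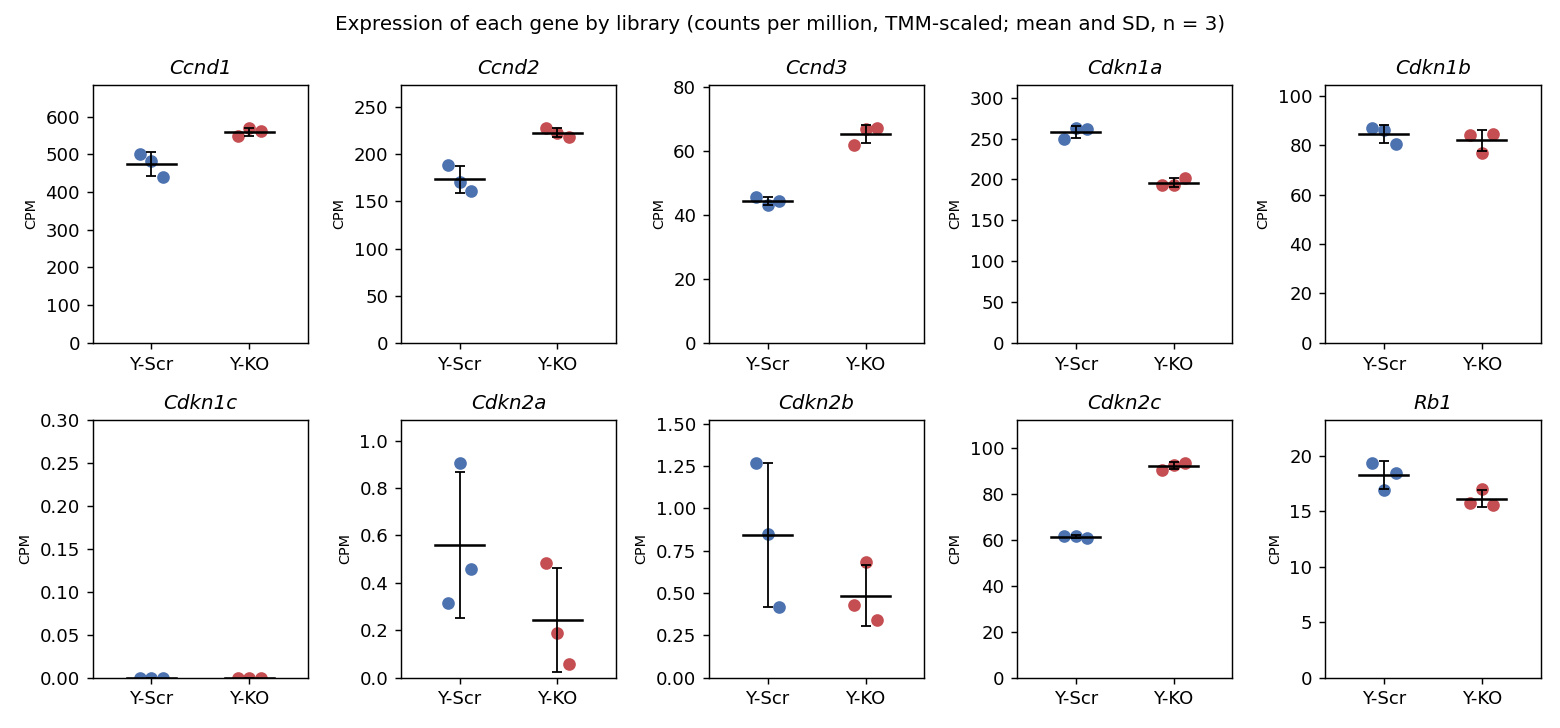
CPM of each of the 10 genes (vertical axes, each from 0) in the 3 Y-Scr and 3 Y-KO libraries, with the mean (bar) and SD (whiskers). The Y-KO points of Ccnd1, Ccnd2, Ccnd3 and Cdkn2c lie above every Y-Scr point and those of Cdkn1a below, while the groups overlap for Cdkn1b, Cdkn2a, Cdkn2b and Rb1, and Cdkn1c is at 0.

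Ccnd1 encodes cyclin D1, the D cyclin of most epithelial cells (ENSMUSG00000070348, chromosome 7, 144929931 to 144939925, minus strand; all gene coordinates are GRCm38). It stood at 502, 481 and 441 CPM in Y-Scr 1, 2 and 3 and at 548, 570 and 562 CPM in Y-KO 1, 2 and 3. Every Y-KO library was above every Y-Scr library. The rise was 0.24 ± 0.06 (SE) on the log2 scale, 1.18-fold, from 475 ± 30.6 to 560 ± 11.1 CPM (SD, n = 3; edgeR quasi-likelihood adjusted p = 0.00464). It was the smallest rise of the D cyclins, at percentile 74.3 of the log2 fold changes of all tested genes.

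Ccnd2, the gene of cyclin D2, lies on chromosome 6 (ENSMUSG00000000184, 127125162 to 127152193, minus strand). Its values were 189, 171 and 161 CPM in Y-Scr and 228, 223 and 218 CPM in Y-KO. It rose by 0.36 ± 0.07 (SE), or 1.28-fold (edgeR quasi-likelihood adjusted p = 0.00023), with no overlap between the groups. The Y-Scr libraries were more spread than the Y-KO libraries for both genes, with coefficients of variation of 6.45% against 1.98% for Ccnd1 and 8.22% against 2.14% for Ccnd2, and Y-Scr 3 was the lowest for both.

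Ccnd3, the gene of cyclin D3, lies on chromosome 17 (ENSMUSG00000034165, 47505051 to 47599691, plus strand). It had 45.5, 43.2 and 44.2 CPM in Y-Scr and 61.9, 66.7 and 67.1 CPM in Y-KO. The rise of 0.56 ± 0.08 (SE), or 1.47-fold (edgeR quasi-likelihood adjusted p = 1.2e-05), exceeded the spread of either group. After removal of the trends on length and GC content from every library, the rises of Ccnd3 (0.23 ± 0.07, adjusted p = 0.0134) and Ccnd2 (0.21 ± 0.05, adjusted p = 0.00314) stayed past the threshold but were much smaller. With that trend removed the 3 D cyclins were close together, Ccnd1 being at 0.20.

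Ratios of counts within a library do not depend on scaling. Ccnd3 had 0.0907, 0.0898 and 0.1 counts per count of Ccnd1 in Y-Scr and 0.113, 0.117 and 0.119 in Y-KO. For Ccnd2 the ratio to Ccnd1 was 0.377, 0.356 and 0.365 in Y-Scr and 0.415, 0.391 and 0.388 in Y-KO. Both ratios were higher in each Y-KO library than in any Y-Scr library, though a trend on length and GC content acts on such ratios too.

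Levels can be set side by side between genes only per length, here as CPM per kilobase of the deposited gene length. On that scale Ccnd1 was by far the main D cyclin, with 101 ± 6.5 in Y-Scr and 119 ± 2.36 in Y-KO (SD, n = 3). It was ahead of Ccnd2 (18.5 ± 1.52 and 23.7 ± 0.508) and Ccnd3 (5.05 ± 0.132 and 7.43 ± 0.327). The sum of the D cyclins was 132, 125 and 116 CPM per kilobase in Y-Scr and 148, 152 and 150 in Y-KO. Ccnd1 made up 81.1% ± 0.397 of the sum in Y-Scr and 79.3% ± 0.367 in Y-KO, Ccnd2 14.9% ± 0.367 and 15.8% ± 0.52, and Ccnd3 4.07% ± 0.242 and 4.95% ± 0.157. The deposited length of Ccnd3, 8775 bases, joins the exons of many transcripts. With the 2113 bases of its longest coding transcript, and the same measure for the others, its share was 12% in Y-Scr and 14.3% in Y-KO, and that of Ccnd1 was 72.4% and 69.4%.

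**Figure D2:**
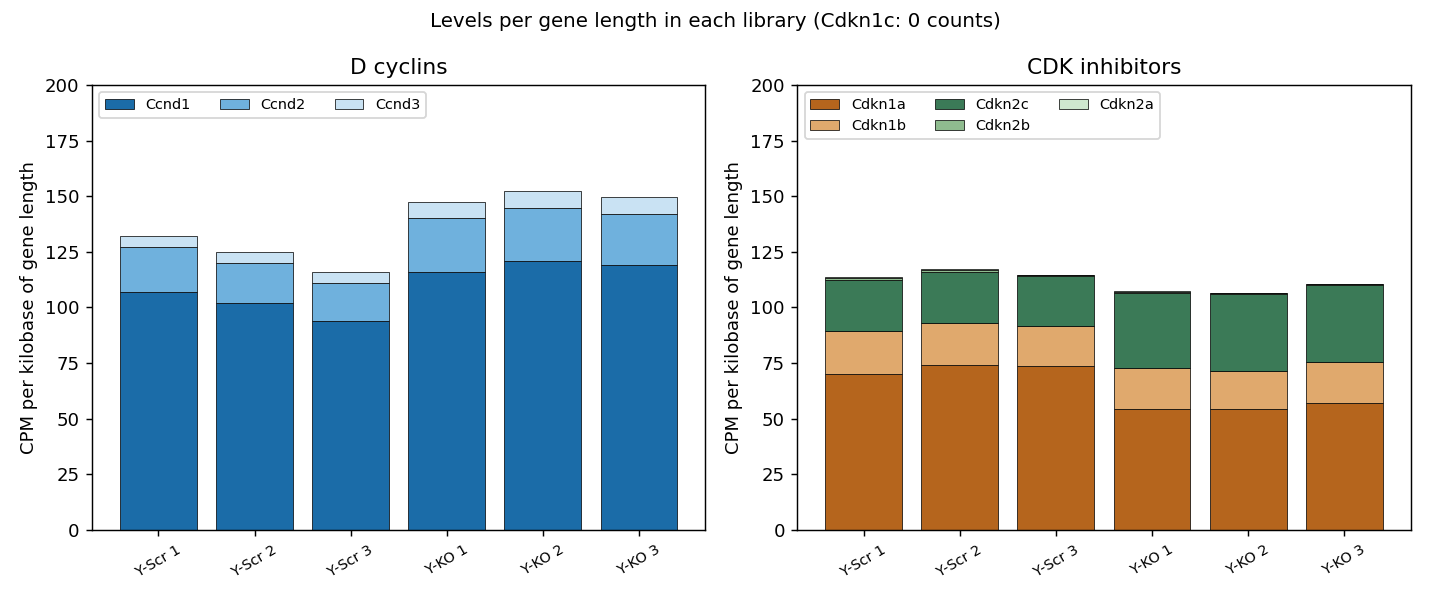
CPM per kilobase of deposited gene length (vertical axis) in each library (horizontal axis), stacked by gene for the D cyclins (left) and the CDK inhibitors among the 10 genes (right, without Cdkn2d). The D cyclin stacks reach 116 to 132 in Y-Scr and 148 to 152 in Y-KO, and within the inhibitor stacks the Cdkn1a part is smaller and the Cdkn2c part larger in every Y-KO library.

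Cdkn1a encodes p21, the CIP/KIP inhibitor best known as a target of p53 (ENSMUSG00000023067, chromosome 17, 29090976 to 29100727, plus strand). It stood at 250, 263 and 262 CPM in Y-Scr and at 193, 193 and 202 CPM in Y-KO. All Y-KO values were below all Y-Scr values. The gene fell by 0.40 ± 0.06 (SE) on the log2 scale, to 0.76 of its level in Y-Scr, from 258 ± 7.51 to 196 ± 5.01 CPM (SD, n = 3; edgeR quasi-likelihood adjusted p = 2.8e-05). Per length it was the most abundant of the inhibitor genes in both groups, at 72.7 ± 2.11 and 55.2 ± 1.41 CPM per kilobase.

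Cdkn1b, the gene of p27, which restrains CDK2 in resting cells, did not pass the test (ENSMUSG00000003031, chromosome 6, 134920401 to 134925513, plus strand). Its 87, 86 and 80.5 CPM in Y-Scr overlapped the 84.3, 77 and 84.7 CPM in Y-KO. The log2 difference was -0.04 ± 0.07 (SE), with a 95% interval of -0.19 to 0.11 (edgeR quasi-likelihood adjusted p = 0.665). Its sign changed between settings, from -0.08 without Y-Scr 3 to 0.07 with length and GC trends removed, and it was 0.00 without Y-KO 2. Within a library there were 2.87, 3.06 and 3.26 counts of Cdkn1a per count of Cdkn1b in Y-Scr, against 2.29, 2.51 and 2.38 in Y-KO.

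Cdkn1c, the gene of p57, an imprinted inhibitor, had 0 counts in all 6 libraries (ENSMUSG00000037664, chromosome 7, 143458339 to 143461050, minus strand). A count of 0 allows a level of up to 0.122 to 0.191 CPM per library, from 3 counts of the total, counting error only. The genes around it were detected: its nearest tested neighbours were Kcnq1ot1, a long non-coding RNA of the same imprinted domain (0.23, edgeR quasi-likelihood adjusted p = 0.364), and Slc22a18 (-0.98, adjusted p = 0.11).

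Cdkn2c, which encodes the INK4 protein p18, rose about as much as Ccnd3 in the reported fit (ENSMUSG00000028551, chromosome 4, 109660876 to 109667189, minus strand). The Y-Scr values were 61.6, 61.7 and 60.6 CPM and the Y-KO values 90.5, 92.5 and 93.5 CPM. Both groups were tight, with coefficients of variation of 1.01% and 1.67%, and stood far apart. The gene rose by 0.59 ± 0.07 (SE), or 1.5-fold (edgeR quasi-likelihood adjusted p = 1.2e-06) and stood at percentile 93.5 of the log2 fold changes of all tested genes. With length and GC trends removed Ccnd3 stood at 0.23, whereas Cdkn2c stayed at 0.53 to 0.68 in all 18 other settings. Cdkn2d, the other INK4 gene outside the INK4 locus, stood at 0.00 ± 0.09 in the reported fit and did not pass the test.

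Cdkn2b, the gene of p15, and Cdkn2a sit side by side on chromosome 4 in the INK4 locus. Cdkn2b (ENSMUSG00000073802, 89306299 to 89311039, minus strand) had 20, 14 and 10 counts in Y-Scr and 8, 11 and 6 in Y-KO. The groups overlapped, and the difference of -0.75 ± 0.54 (SE; 95% interval -1.88 to 0.38) did not pass the test (edgeR quasi-likelihood adjusted p = 0.28). The value of Cdkn2b was -0.34 without Y-Scr 1 and -1.12 without Y-Scr 3, and past the threshold in neither case. Cdkn2a (ENSMUSG00000044303, 89274471 to 89294653, minus strand) encodes p16 and, from another first exon and reading frame, p19Arf, the activator of p53, and counts per gene do not separate the products. It had 5, 15 and 11 counts in Y-Scr and 9, 3 and 1 in Y-KO, again with overlap. Summed over the groups, 31 counts stood against 13, a ratio of 0.451 with an exact 95% interval of 0.217 to 0.887 that covers counting error alone. With no low-count filter its log2 difference was -1.17 ± 0.77 (edgeR quasi-likelihood adjusted p = 0.32), and DESeq2 gave -1.19 ± 0.95 (adjusted p = 0.365).

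Mtap, the expressed gene commonly lost together with this locus in cancer, stood at 0.05 ± 0.06 (edgeR quasi-likelihood adjusted p = 0.513). It ranged from 0.02 to 0.20 over 18 other settings, without a call in 16 and called higher in the rest. Of the signal per length of Cdkn2a, Cdkn2b and Cdkn2c, Cdkn2c held 95.5% ± 1.39 in Y-Scr and 98.4% ± 0.671 in Y-KO (SD, n = 3). Cdkn2d, which is not among the 10 genes, stood at 33 ± 3.13 and 33 ± 1.84 CPM per kilobase, and with it in the sum the share of Cdkn2c was 40.1% ± 2.2 and 50.6% ± 1.02. The sum of Cdkn2a, Cdkn2b and Cdkn2c was 24.1, 24.4 and 23.2 CPM per kilobase in Y-Scr and 34.4, 35.1 and 35.1 in Y-KO, while the CIP/KIP sum was 89.4, 93 and 91.5 in Y-Scr and 72.9, 71.4 and 75.5 in Y-KO. The first sum was thus higher in every Y-KO library and the second lower. With Cdkn2d added the INK4 sum was 54.4, 60.8 and 55.7 in Y-Scr and 65.3, 69.5 and 68.7 in Y-KO, 1.19 times as high on average in place of 1.46 times. Cdkn2c had 0.237 ± 0.00816 counts per count of Cdkn1a in Y-Scr and 0.47 ± 0.00774 in Y-KO.

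Rb1, the gene of the retinoblastoma protein (ENSMUSG00000022105, chromosome 14, 73183673 to 73325822, minus strand), was expressed in every library. Its 19.4, 16.9 and 18.5 CPM in Y-Scr overlapped the 15.8, 17 and 15.6 CPM in Y-KO. The difference of -0.18 ± 0.11 (SE; 95% interval -0.41 to 0.05) did not pass the test (edgeR quasi-likelihood adjusted p = 0.196).

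By level per length, the order in Y-Scr was Ccnd1, Cdkn1a (72.7), Cdkn2c (22.8 ± 0.231), Cdkn1b (18.6 ± 0.766), Ccnd2 (18.5), Ccnd3, Rb1 (3.04 ± 0.204), Cdkn2b (0.607 ± 0.305), Cdkn2a (0.479 ± 0.263) and Cdkn1c. Neighbours in that order that did not differ beyond their spread were Cdkn1b with Ccnd2, and Cdkn2b with Cdkn2a. In Y-KO, Ccnd2 (23.7) stood above Cdkn1b (18 ± 0.951), with the other places kept. The order depends on the length used: per length of the longest coding transcript, Ccnd2 (27.5 ± 2.26), Cdkn2c (24.8 ± 0.251) and Ccnd3 (21 ± 0.546) all stood above Cdkn1b (18.6 ± 0.766) in Y-Scr, and Ccnd1 (127 ± 8.19) and Cdkn1a (124 ± 3.61) did not differ beyond their spread. The sum of the D cyclins over the sum of the 6 inhibitors among the 10 genes was 1.16, 1.07 and 1.01 in Y-Scr and 1.38, 1.43 and 1.36 in Y-KO. With Cdkn2d added to the inhibitors it was 0.917, 0.815 and 0.787 in Y-Scr and 1.07, 1.08 and 1.04 in Y-KO. Both are a description of RNA and not of protein or kinase activity.

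**Figure D3:**
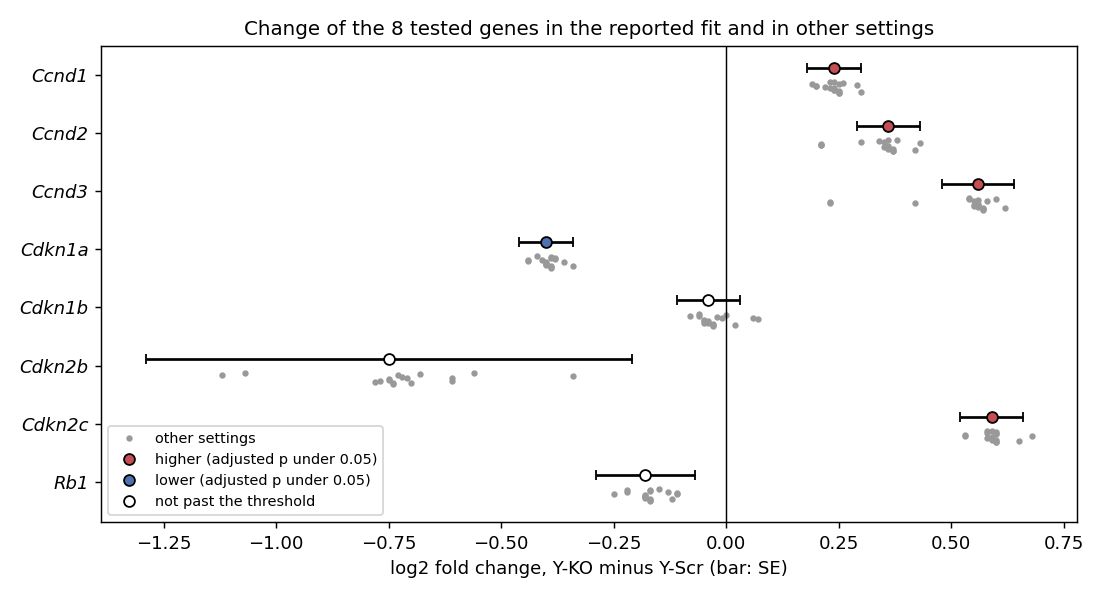
Log2 fold change of Y-KO against Y-Scr (horizontal axis) for the 8 tested genes, as the reported estimate with its SE and colour for the call, and as small grey points under 18 other settings. Every grey point of the 5 called genes lies on the same side of 0 as the estimate, with the widest shifts for Ccnd2 and Ccnd3, while those of Cdkn1b lie on both sides.

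Genes that overlap on opposite strands may limit these counts, since no source used here gives the strand setting of the counting. The shared bases given here lie between gene starts and ends, introns included, and the overlap of exons was not computed. Ccnd3 shares 361 bases of its body with Bysl, which also rose (0.27 ± 0.08, edgeR quasi-likelihood adjusted p = 0.00989). Ccnd2 shares 2805 bases with the antisense gene 9330179D12Rik, which was lower (-0.88 ± 0.32, adjusted p = 0.0331, a call lost without Y-Scr 1, Y-Scr 2, Y-KO 2 or Y-KO 3, at -0.84 to -0.75), and Ccnd1 shares 1771 bases with Oraov1 (-0.04 ± 0.11). Rb1 encloses Lpar6 and shares 24171 bases with Rcbtb2 (-0.27 ± 0.11, adjusted p = 0.0521), and Cdkn1a overlaps AC167363.2, a model with 5 to 26 counts per library. Over 18 other settings Rcbtb2 ranged from -0.42 to -0.19, without a call in 12 and called lower in the rest.

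The 5 nearest tested genes on each side of each gene showed no common direction around the called genes. Around Cdkn2c, 4 of 10 neighbours were lower and 1 was higher, with values from -0.72 to 0.66, and the nearest ones, 9630013D21Rik (-0.37, adjusted p = 0.318) and Faf1 (-0.36, adjusted p = 0.00026), lay on the other side of 0 from Cdkn2c. Around Ccnd3, 4 neighbours were higher and 2 lower (-0.66 to 0.71). Around Ccnd2, 3 were higher and 5 lower (-1.31 to 0.86). Ccnd1 had 7 tested neighbours, of which 1 was higher and 2 were lower (-0.40 to 0.28). Around Cdkn1a, 1 was higher and 2 were lower (-0.79 to 0.46). Of its nearest neighbours, AC167363.2, on the side after it, stood at -0.11 ± 0.53 (edgeR quasi-likelihood adjusted p = 0.885). The gene on the side before it, Trp53cor1, a p53-induced long non-coding RNA also known as lincRNA-p21, stood at -0.79 ± 0.45 (adjusted p = 0.168).

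The counts called in the lists that follow are to be read against the 20.7% higher and 23.0% lower among all tested genes. The partners of the D cyclins moved unequally. Of 8 tested genes of G1 kinases, cyclin E and relatives of Rb1 and the INK4 genes, 4 were higher and 1 was lower, with a median of 0.17. Cdk4 fell by 0.30 ± 0.06 (SE), from 643 ± 34.6 to 522 ± 26.2 CPM (edgeR quasi-likelihood adjusted p = 0.00081). Cdk6, which encodes the other partner kinase, rose by 0.41 ± 0.07, from 119 ± 10.3 to 159 ± 12.7 CPM, or by 0.22 with length and GC trends removed and 0.21 with that on length alone. Ccne1, the cyclin E1 gene and a known E2F target, rose by 0.57 ± 0.10, from 27.4 ± 2.67 to 40.7 ± 4.58 CPM. Ccne2 rose by 0.23 ± 0.09 (adjusted p = 0.0356), a call lost on leaving out Y-Scr 3 (0.14) or any of the Y-KO libraries (0.21 without Y-KO 1 and 0.24 without either of the others), and it stood at 0.62 with length and GC trends removed. Cdk2, the kinase partner of cyclin E, was higher (0.22, adjusted p = 0.0372), a call lost without Y-Scr 2 (0.16) or any of the Y-KO libraries (0.19 to 0.24). With length and GC trends removed, or that on length alone, Cdk2 stood at 0.14 and was not past the threshold. The count of higher genes in this list was 2 without Y-KO 1, 2 or 3. The pocket protein genes Rbl1 (-0.08) and Rbl2 (0.13) did not pass the test.

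Downstream of Rb, 6 of 9 tested genes of the E2F and DP family were higher and 1, E2f5 (-0.29, adjusted p = 0.0403), was lower, with a median of 0.29. Tfdp2, which encodes a DP partner of E2F proteins, rose by 1.00 ± 0.14 (SE), from 7.1 ± 0.335 to 14.2 ± 0.906 CPM (edgeR quasi-likelihood adjusted p = 8.8e-06). The atypical repressors E2f8 and E2f7 rose by 0.75 ± 0.08 and 0.59 ± 0.11, and the activator gene E2f3 by 0.46 ± 0.09. The call of E2f5 was lost in 12 of 18 other settings, among them the fits that left out Y-Scr 2, Y-Scr 3 or any of the Y-KO libraries.

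Among 20 E2F target genes of the G1/S transition, 11 were higher and 1, Tk1 (-0.27, adjusted p = 0.00162), was lower, with a median of 0.17. The lower count was 3 without Y-Scr 1 and 2 without Y-KO 1. Chaf1a, Cdc6, Uhrf1 and Mcm4, genes of chromatin assembly, replication licensing, maintenance of DNA methylation and the replicative helicase, rose by 0.56 to 0.79. Pcna (-0.10), Tyms (-0.07) and Cdt1 (0.15) did not pass the test. Over 18 other settings Cdt1 ranged from 0.06 to 0.22, without a call in 15 and called higher in the rest. Of the 10 genes listed as S, G2 and M cyclins and kinases, 7 were higher and none was lower, with a median of 0.22. That list includes Mki67 and Foxm1, which encode neither a cyclin nor a kinase. Mki67, the gene of the proliferation marker Ki-67, rose by 0.75 ± 0.10 (SE), from 254 ± 35.5 to 429 ± 48.8 CPM, and Ccnf, the gene of cyclin F, by 0.62 ± 0.07. Plk1, a mitotic kinase gene, rose by 0.56 ± 0.06, and Foxm1 by 0.31 ± 0.08, the latter not past the threshold with length and GC trends removed (0.13, edgeR quasi-likelihood adjusted p = 0.11).

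Of 9 tested genes whose products activate, support or restrain CDKs, 3 were higher and 3 lower, with a median of 0.07. The phosphatase gene Cdc25a rose by 0.80 ± 0.09 (SE; edgeR quasi-likelihood adjusted p = 5.9e-07) and the opposing kinase gene Wee1 by 0.72 ± 0.09. Cdc37 (0.20), a kinase chaperone gene, was the third higher gene, a call lost without Y-KO 1 (0.17) or with length and GC trends removed (0.02). The 3 lower genes were Mnat1 (-0.50 ± 0.09), Cdk7 (-0.27 ± 0.08) and Ccnh (-0.26), which together encode the CDK-activating kinase. With length and GC trends removed only Mnat1 (-0.30) remained of the 3 calls, Cdk7 being at -0.12 and Ccnh at 0.07, on the other side of 0. Cdk7 also lost its call without Y-KO 2 (-0.23), and Ccnh on leaving out Y-Scr 2 (-0.18) or either of Y-KO 1 (-0.26) and Y-KO 3 (-0.25).

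Of 13 genes for the turnover of cyclin D and p27, 5 were higher and 2 lower, with a median of 0.14. Ddb1, an adaptor of CUL4 ubiquitin ligases, rose by 0.36 ± 0.06 (SE; edgeR quasi-likelihood adjusted p = 5.9e-05), Fbxo31, which encodes a ligase subunit for cyclin D1, by 0.47 ± 0.08 (0.21 with length and GC trends removed), and Cul1 by 0.27 ± 0.06. Skp1a was lower (-0.24 ± 0.07), but not past the threshold without Y-Scr 2 (-0.16) or Y-KO 2 (-0.20), nor once the length and GC trends were removed (-0.01). The others were Skp2 (0.27) and Dtl (0.24), both higher, and Fbxo4 (-0.25), lower. Skp2 lost its call without Y-KO 3 (0.24), Dtl without Y-KO 1 (0.23) or Y-KO 3 (0.20), and Fbxo4 on leaving out any 1 library other than Y-Scr 3 (-0.26 to -0.21). Each of these genes also lost its call with the length trend removed (Skp2 0.15, Dtl 0.04 and Fbxo4 -0.12). With length and GC trends removed Dtl stood at 0.13 and Fbxo4 at -0.10, neither past the threshold. The count of higher genes was 3 without Y-KO 3, and that of lower genes was 0 without Y-Scr 2 or Y-KO 2 and 1 on leaving out Y-Scr 1 or either of Y-KO 1 and 3.

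Known regulators of the 10 genes split by direction, with 7 of 23 higher and 9 lower (5 lower without Y-KO 1) and a median of -0.06. Myc, whose product is known to repress Cdkn1a and Cdkn2b and to induce Ccnd2, fell by 0.76 ± 0.06 (SE), from 508 ± 24.9 to 300 ± 3.91 CPM (edgeR quasi-likelihood adjusted p = 9.3e-09). Foxo1, a known activator of Cdkn1b, fell by 0.61 ± 0.12, while the related Foxo3 (0.49, adjusted p = 0.00155) and Foxo4 (0.46, adjusted p = 0.00443) were higher. Cbx7, a Polycomb repressor of the INK4 locus, fell by 0.39 ± 0.08 (0.65 with length and GC trends removed). Of the other Polycomb genes in the list, Bmi1 (0.31, adjusted p = 0.002) and Suz12 (0.34, adjusted p = 0.00047) were higher. Rnf2 (-0.21, adjusted p = 0.0488) was lower, and Ezh2, Eed, Cbx8 and Ring1 did not pass the test. Sp1, whose product binds GC boxes such as those shown above, rose by 0.37 ± 0.07, or by 0.24 with the trend on length removed. Trp53 (0.30, adjusted p = 0.00085) was higher and Mdm2 (-0.20, adjusted p = 0.0133) lower, the latter call being lost on leaving out Y-Scr 2 (-0.17) or either of Y-KO 1 (-0.20) and Y-KO 3 (-0.17).

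The p53 target genes other than Cdkn1a held the largest falls among these lists: 8 of 17 tested were lower and 2 higher (4 higher without Y-Scr 2), with a median of -0.10. Fas fell by 2.43 ± 0.13 (SE), from 26.6 ± 3.62 to 4.92 ± 0.129 CPM (edgeR quasi-likelihood adjusted p = 2.7e-11). Gadd45a, a gene of the growth arrest response, fell by 1.75 ± 0.08, Plk2 by 1.37 ± 0.06 and the antiproliferative gene Btg2 by 1.23 ± 0.11. Other well-known targets did not pass the test, such as Bax (-0.02), Ccng1 (0.17) and Sesn2 (-0.02). Over 18 other settings Ccng1 ranged from 0.08 to 0.40, without a call in 13 and called higher in the rest. The higher genes were Zmat3 (0.35, or 0.16 and not past the threshold with length and GC trends removed) and Perp, which had 0 counts in every Y-Scr library and 1.56 ± 0.193 CPM in Y-KO.

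The list of Rb and DREAM corepressor genes also holds genes that do not encode corepressors. Of its 11 tested genes, 5 were higher and 1 was lower (Rbbp4, -0.18), with a median of 0.16. Mybl2, itself an E2F target and not a corepressor gene, rose by 1.01 ± 0.08 (SE), from 43.3 ± 3.9 to 87.5 ± 3 CPM (edgeR quasi-likelihood adjusted p = 7.2e-09). Arid4a rose by 0.47 ± 0.11 and Suv39h1 by 0.30 ± 0.08. Hdac2 (0.18) was the fifth higher gene, a call lost without Y-Scr 1 (0.15), Y-Scr 2 (0.18), Y-KO 2 (0.18) or Y-KO 3 (0.14). Rbbp7 (0.18 ± 0.06) lost its call without Y-KO 1 (0.17) or Y-KO 3 (0.18) and stood at 0.37 with length and GC trends removed. The count of higher genes was 3 without Y-KO 3, and the lower gene lost its call without Y-Scr 2 or any 1 of the Y-KO libraries.

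**Figure D4:**
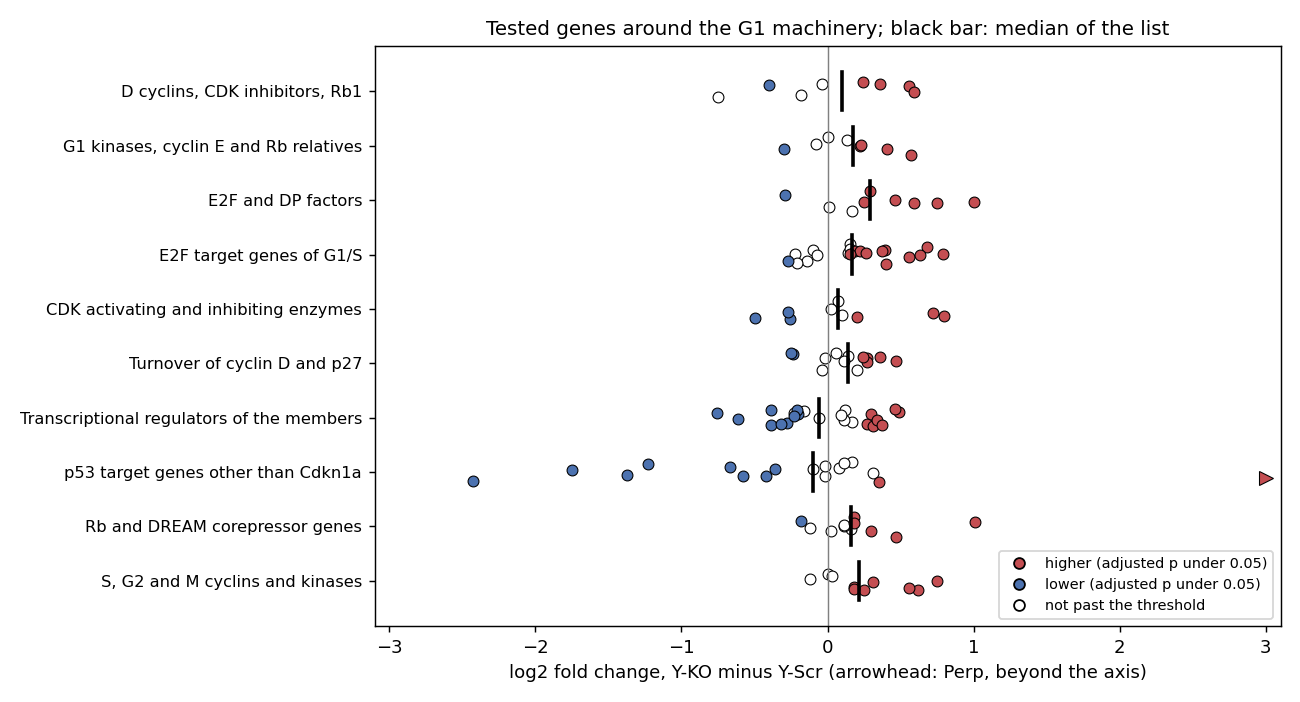
Log2 fold change of Y-KO against Y-Scr (horizontal axis) of every tested gene of the 10 genes' list and of 9 pathway lists (rows), with the call as colour and the list median as a bar. Perp lies beyond the axis and is drawn as an arrowhead. Called genes lie on both sides of 0 in every list but the S, G2 and M cyclins and kinases, and the medians run from -0.10 to 0.29.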

How the data were processed

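Poly-A RNA of 6 libraries had been sequenced, and the authors deposited unnormalized whole-number counts for each gene, with gene lengths. The submitters' processing notes list STAR 2.5.2b, featureCounts 1.5.3, Trimmomatic 0.39, FastQC 0.12.1, MultiQC 1.13 and DESeq2, and the builds mm39 and GRCm39. Of 54409 deposited genes found in a GRCm38 annotation (GENCODE M21), 98.3% had the same coordinates, among them all 10 studied here, so coordinates are given as GRCm38.

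The groups were tested in R 4.3.3 by edgeR 4.0.16, on counts passing filterByExpr, with TMM factors and a robust quasi-likelihood fit whose sole term was the group. P-values were adjusted over 12907 genes by Benjamini-Hochberg at 0.05. CPM uses TMM-scaled library sizes, and log2 fold changes above 0 mean a higher level in Y-KO. SE is the log2 fold change over the root of its F statistic. The test was checked on simulated counts. Chi-square per degree of freedom was 3.55 to 16 between replicates, above sampling noise. The 10 genes, the 9 pathway lists and the tests were chosen with earlier results of these data known. Named were all 10 genes, up to 4 tested genes of each list by smallest adjusted p, the nearest neighbours and the Y genes. All other genes (Cdkn2d, Rbl1, Rbl2, Cdk2, E2f5, Tk1, Pcna, Tyms, Cdt1, Cdc37, Ccnh, Skp2, Dtl, Fbxo4, Foxo3, Foxo4, Bmi1, Suz12, Rnf2, Ezh2, Eed, Cbx8, Ring1, Trp53, Mdm2, Zmat3, Perp, Bax, Ccng1, Sesn2, Rbbp4, Hdac2, Mtap and the markers given with values) were named after their values were seen.

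Alternatives were DESeq2 1.42.0, limma-voom 3.58.1, other scaling factors, a filter of 1 CPM in 3 libraries or none, tests limited to protein-coding genes, a replicate block, removal of a length trend (splines with 4 degrees of freedom) and leaving out each library. Removal of length and GC trends together, and lengths of the longest coding transcripts and sums with Cdkn2d, were added after the data were seen.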

Additional observations from a re-analysis of the deposited data

How the results depend on the processing

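The calls of the 10 genes were the same in all 18 other settings, with 4 higher and 1 lower in each, including the fits that left out 1 library. The log2 fold change ranged from 0.19 to 0.30 for Ccnd1, 0.21 to 0.43 for Ccnd2, 0.23 to 0.62 for Ccnd3, 0.53 to 0.68 for Cdkn2c and -0.44 to -0.34 for Cdkn1a. Cdkn1b, not past the threshold in any of them, changed sign with library totals only (0.02), with length and GC trends removed (0.07, and 0.06 with the replicate block) and without Y-KO 2, with a range of -0.08 to 0.00 on leaving out 1 library. Among other named genes, Ccnh changed sign with length and GC trends removed (0.07, with or without the replicate block). Genes near 0 and not past the threshold did so as well. Cdkn2d was at 0.01 with DESeq2, its size factors or upper-quartile scaling, 0.06 with library totals only, 0.14 with the length trend removed, 0.05 with length and GC trends removed and -0.05 to 0.08 on leaving out 1 library. Pcna was at 0.01 and 0.11 with the length trend and with both trends removed. Bax was at 0.04 (library totals only), 0.13 (length trend removed) and -0.07 to 0.03 (1 library left out), and Sesn2 at 0.04, 0.03 and -0.04 to 0.03 in the same settings. Leaving out 1 library gave -0.18 to 0.00 for Rbl1 and -0.13 to 0.01 for Oraov1, which was at 0.02 with library totals only. Cdkn2b could not be fitted with at least 1 CPM in 3 libraries. Over all genes, 2138 to 3212 were higher and 2458 to 3061 lower. No scaling moved the median of all genes by more than 0.06.

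Same-numbered replicates of the groups did not deviate together (correlations of -0.06, -0.03 and -0.02). With the replicate block the counts for the 10 genes were 4 and 1, and 2 genes in place of 4 were higher among the G1 kinases, cyclin E and Rb relatives (Ccne2, 0.23, edgeR quasi-likelihood adjusted p = 0.0621). It also gave 3 in place of 5 higher and 0 in place of 1 lower in the Rb and DREAM list (Rbbp7, 0.18, adjusted p = 0.0694), 0 in place of 1 lower in the E2F family and 1 in place of 2 lower among the turnover genes. Over all 18 settings the list counts of higher genes were 2 to 4 for the G1 kinases, 5 to 7 for the E2F family, 9 to 13 for the E2F targets, 2 to 4 for the genes that activate, support or restrain CDKs, 3 to 6 for turnover, 6 to 8 for the regulators, 2 to 4 for the p53 targets, 3 to 5 for the Rb and DREAM list and 5 to 8 for the S, G2 and M genes. Counts of lower genes were 1 to 3 for the E2F targets and for the genes that activate, support or restrain CDKs, 0 to 2 for turnover, 5 to 10 for the regulators and 7 to 8 for the p53 targets, and 0 or 1 for the others, save the G1 kinases at 1.

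The exon lengths of GENCODE M21 were those deposited. With longest coding transcripts the shares within a family were 72.4% and 69.4% (Y-Scr and Y-KO) for Ccnd1, 15.7% and 16.3% for Ccnd2, 12% and 14.3% for Ccnd3, 87% and 84% for Cdkn1a and 13% and 16% for Cdkn1b. Cdkn1c had no counts, and the few counts of Cdkn2a and Cdkn2b also varied between replicates, so no difference was detectable for them.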
